A study of Arabidopsis thaliana with 12 samples.

Results

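The type-A response regulators are the short, cytokinin-inducible members of the Arabidopsis response regulator family, and all 10 of them (ARR3, ARR4, ARR5, ARR6, ARR7, ARR8, ARR9, ARR15, ARR16 and ARR17) were followed here. They were selected by locus identifier among the 28775 loci of the deposited expression files, and the rule for membership uses no measured value. The RNA came from root meristems of 5-day-old Arabidopsis thaliana seedlings in the Col-0 background, and every seedling, those of the control included, carried the pRPS5A::DOF2.1-GR construct. The 4 groups were a control at 1 h and seedlings on 10 µM dexamethasone (DEX) for 1 h, 2 h or 4 h, with 3 biological repeats per group. DEX is a synthetic glucocorticoid that lets a protein fused to the glucocorticoid receptor domain (GR) enter the nucleus, here DOF2.1, a plant transcription factor of the DOF zinc finger family. The RPS5A promoter is active in dividing cells in general, so the fusion was not limited to the cells in which DOF2.1 is normally made. Each library was made from 300 pooled root tips. The comparisons with the control at 2 h and 4 h differ in time as well as in DEX, since a control at 2 h or 4 h and a DEX-treated line without the construct were not analysed here, and time, DEX itself and DOF2.1-GR cannot be told apart in them. At 1 h the same holds for DEX itself and DOF2.1-GR. Comparisons among the DEX groups also differ in elapsed time, with no control at 2 h or 4 h analysed here. Time, DEX itself and DOF2.1-GR cannot be told apart in them either.

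Cytokinin is sensed by membrane histidine kinases (AHK2, AHK3 and AHK4), whose phosphoryl group passes through phosphotransfer proteins (AHPs) to type-B response regulators, the DNA-binding transcription factors of the pathway. Type-B regulators switch on the type-A genes within minutes of a cytokinin pulse. The type-A proteins keep the receiver domain but lack the DNA-binding output domain, and they dampen the pathway, which makes their transcripts both a feedback brake and the customary readout of cytokinin signalling. In the root meristem cytokinin favours the exit of cells from division and shapes the vascular cylinder, where the LOG enzymes release active cytokinin and DOF2.1 is known to act downstream of that local cytokinin.

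The genes fell into 5 pairs by their closest coding sequence in the RefSeq annotation of assembly TAIR10.1, from which all coordinates are given. The pair of ARR3 (AT1G59940, chr1:22065617-22067233, minus strand) and ARR4 (AT1G10470, chr1:3441988-3444360, minus strand) was identical at 83.2% of 680 aligned coding bases. ARR8 (AT2G41310, chr2:17221840-17224880, plus strand) and ARR9 (AT3G57040, chr3:21109059-21111567, plus strand) shared 81.3% of 675 bases. ARR5 (AT3G48100, chr3:17758427-17760950, minus strand) and ARR6 (AT5G62920, chr5:25252007-25254318, minus strand) shared 81.4% of 549 bases, and ARR7 (AT1G19050, chr1:6577833-6579314, minus strand) and ARR15 (AT1G74890, chr1:28131447-28133025, minus strand) shared 79.0% of 581 bases. ARR16 (AT2G40670, chr2:16969673-16972113, plus strand) and ARR17 (AT3G56380, chr3:20905264-20906397, plus strand) shared 83.4% of 463 bases. The treatment of reads that match both members of a pair is not given in the sources used here. ARR6 overlaps AT5G62910 on the opposite strand, which held 212 to 287 counts per library, and ARR8 and ARR9 overlap antisense lncRNA genes (AT2G09250 and AT3G08825) that have no row in the files. The library kit keeps strand, per the labels, but the strand setting of the counting is not given in the sources used here, so counts of these 3 genes may hold reads from their antisense partners.

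The 250 bases upstream of the annotated start are shown for 1 member of each of the 4 pairs that were well detected, chosen after the values were seen from those called in at least 1 comparison with the control (ARR3, ARR8, ARR5 and ARR7). They are written 5′ to 3′ on the gene's strand from TAIR10.1, with capitals for matches to the type-B regulator core, searched on both strands as AGATT or its variant AGATC, and with a leading G as GGATT or the variant GGATC.
ARR3 (chr1:22067234-22067483, minus strand): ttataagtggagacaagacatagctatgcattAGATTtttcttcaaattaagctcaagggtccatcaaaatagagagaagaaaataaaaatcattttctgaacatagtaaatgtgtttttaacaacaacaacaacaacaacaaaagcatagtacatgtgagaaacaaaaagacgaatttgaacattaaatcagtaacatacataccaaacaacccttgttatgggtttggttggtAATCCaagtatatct
ARR8 (chr2:17221590-17221839, plus strand): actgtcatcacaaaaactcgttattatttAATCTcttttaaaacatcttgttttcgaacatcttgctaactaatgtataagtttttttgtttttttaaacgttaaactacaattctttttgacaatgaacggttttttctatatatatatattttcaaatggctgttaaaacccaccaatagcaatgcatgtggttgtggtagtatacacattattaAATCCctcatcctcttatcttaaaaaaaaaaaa
ARR5 (chr3:17760951-17761200, minus strand): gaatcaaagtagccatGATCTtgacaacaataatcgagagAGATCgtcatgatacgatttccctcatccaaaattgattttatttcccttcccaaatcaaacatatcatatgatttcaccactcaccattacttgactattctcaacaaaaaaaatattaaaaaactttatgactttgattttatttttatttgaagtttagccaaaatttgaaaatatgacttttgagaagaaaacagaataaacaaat
ARR7 (chr1:6579315-6579564, minus strand): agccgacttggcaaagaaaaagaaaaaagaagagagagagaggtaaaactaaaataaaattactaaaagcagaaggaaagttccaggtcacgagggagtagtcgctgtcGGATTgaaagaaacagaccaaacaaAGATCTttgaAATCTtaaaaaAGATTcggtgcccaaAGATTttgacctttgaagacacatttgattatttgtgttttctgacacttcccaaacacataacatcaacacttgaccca

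Each of the 10 members had at least 2 matches to a type-B core in this window, but 85.2% of all 27437 promoter windows of the same length held at least 1 match and 60.28% held at least 2. ARR7 had 6 matches, a number reached by 3.918% of windows, and their first bases lay at positions -141 to -80 relative to the annotated start. A pair of them read the same 6 letters from opposite strands and so overlap by 4 bases. ARR16 had 7 matches, reached by 1.494% of windows, and ARR6 had 4, whereas the other 7 members had 2 each. The DOF core AAAG, searched on both strands, was found in the windows of 9 members, all but ARR4, and in 98% of all windows. A match is a description of letters and says nothing on whether a factor binds there.

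The libraries held 14142082 to 17522834 counts, and edgeR tested the 19733 loci with enough counts. DOF2.1 itself had 79.4 to 88.3 normalized CPM (counts scaled to a common library size) in the controls and 43.5 to 72.1 CPM in the DEX libraries, a value that covers the endogenous gene and possibly the fusion and does not report nuclear entry. The 6 meristem markers fixed for the check were all detected (summed 127 to 190 CPM), as were 6 markers of differentiated root cells (summed 299 to 449 CPM), while 4 leaf photosynthesis genes summed to 5.21 to 12.2 CPM. The labels do not say that the repeats grew as separate cultures on separate days, so p-values measure the spread between these samples. Because these are bulk samples, fewer cells that make a transcript and less of it per cell cannot be told apart.

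Control replicate 3 stood apart for this family. Its value was the highest of the 3 controls for 9 of the 9 members that entered the test, which was the case for 34.4% of all tested loci. The median log2 ratio of these members to the mean of the other controls was 0.584, against -0.007 over all tested loci. It was 2.31 times that mean for ARR3, 1.6 times for ARR5, 1.54 times for ARR7, 1.5 times for ARR4 and 1.13 times for ARR6. For ARR4, ARR5, ARR6, ARR7 and ARR15 it was the highest of all 12 libraries, a place it held for 7.05% of tested loci. The same library was also the highest control for 6 of 6 tested cytokinin oxidase genes, which encode the enzymes that degrade cytokinin and of which several are themselves cytokinin-inducible. It was below both other controls for 5 of 6 cytokinin response factors (median log2 ratio -0.276), and above both for the 2 tested shoot markers (median 0.647). The part of these differences in the members' values was not tested. Members are therefore compared with the control with and without this library, and the pathway and marker genes whose calls change without it are named. The contrast of DEX 4 h with DEX 1 h sets no control library against the DEX groups. Its SE and p still come from the fit of all 12 libraries, this one included.

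**Figure D1:**
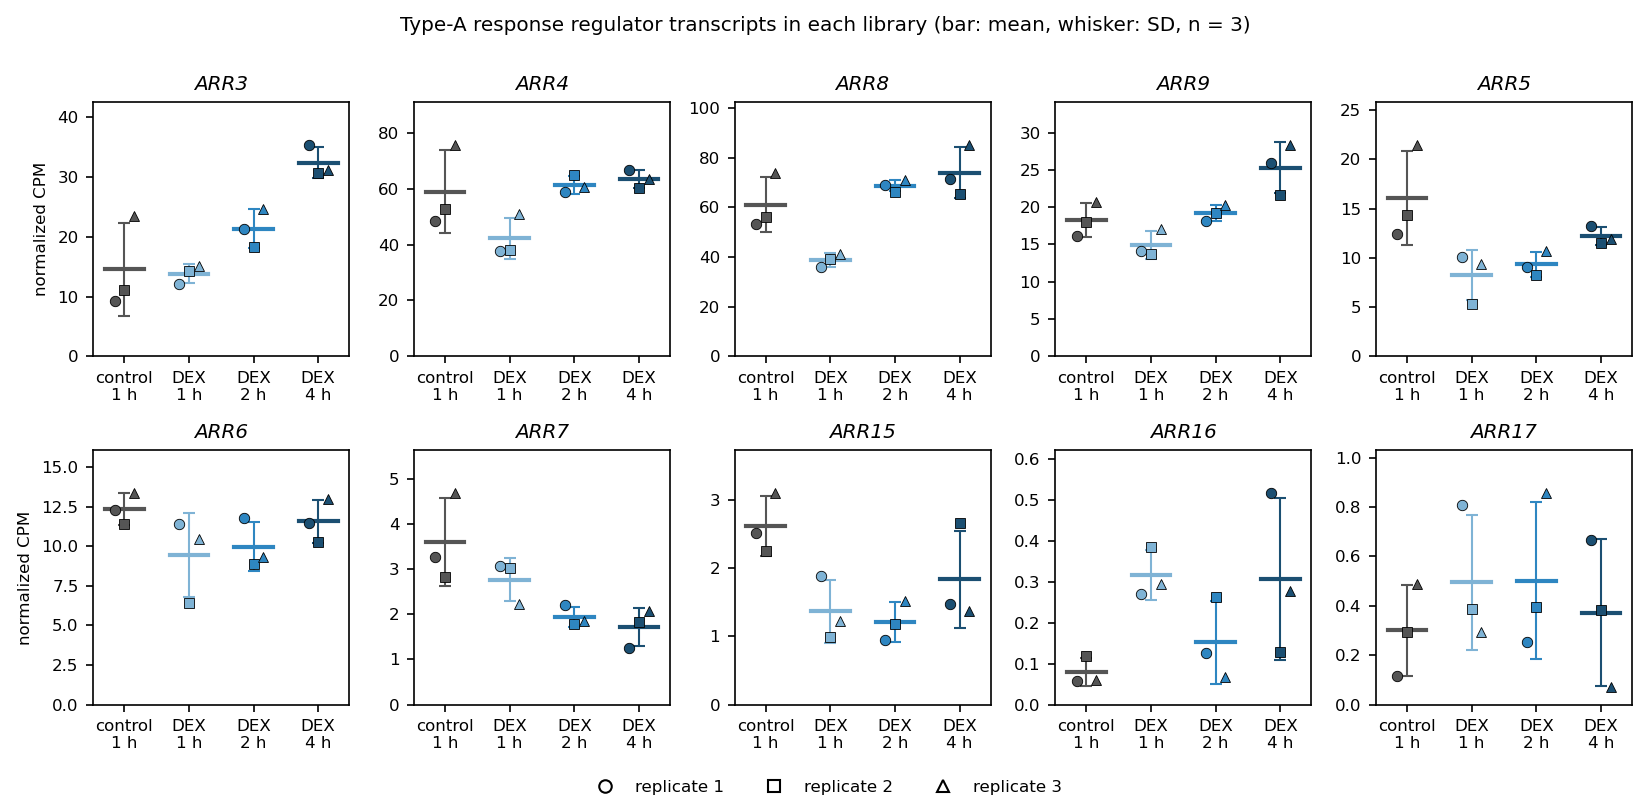
Normalized CPM (y axis, linear, from 0) of each type-A gene in each of the 12 libraries by group (x axis). Points are libraries, with the symbol giving the replicate number, bars are means and whiskers are SDs (n = 3). ARR8 has its 3 lowest libraries at DEX 1 h (35.9 to 41.3 CPM), ARR3 its 3 highest at DEX 4 h (30.6 to 35.4 CPM), and the triangle of control replicate 3 tops the controls in every panel but ARR16.

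Levels per kilobase of exon differed by orders of magnitude across the family. In the controls ARR4 (28.1 ± 7.03 CPM per kb, SD, n = 3) and ARR8 (25.7 ± 4.67) were the most abundant, and their ranges overlapped. ARR3 (11.1 ± 5.92), ARR5 (11.1 ± 3.28), ARR9 (9.65 ± 1.19) and ARR6 (8.47 ± 0.669) followed, each overlapping its neighbours in this order. ARR7 (3.82 ± 1.03) lay above ARR15 (2.43 ± 0.41) without overlap, and both lay below all libraries of the former group. ARR17 (0.486 ± 0.3) and ARR16 (0.0382 ± 0.0163) were close to the limit of detection, and their ranges did not overlap. After 4 h of DEX the per-kilobase order of the leading genes was ARR8 (31.2 ± 4.31), ARR4 (30.2 ± 1.57), ARR3 (24.7 ± 2.0) and ARR9 (13.4 ± 1.83). ARR8 and ARR4 overlapped there, and ARR3, which had overlapped ARR5, ARR6 and ARR9 in the controls, lay above all 3 of them.

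ARR3 and ARR4 are the closest relatives of each other, and both have been linked to the period of the circadian clock, with ARR4 also known to bind phytochrome B. ARR3 was at 9.19, 11.1 and 23.5 CPM in control replicates 1, 2 and 3, at 12.1, 14.3 and 15.1 CPM after 1 h of DEX, at 21.3, 18.2 and 24.6 CPM after 2 h, and at 35.4, 30.6 and 31.2 CPM after 4 h. All 3 libraries at 4 h lay above the other 9, whereas the control values spread widely because of replicate 3. ARR3 was higher at 4 h than in the control, with a log2 fold change of 1.15 ± 0.292 (SE, edgeR adjusted p = 0.00877), and higher than at 1 h of DEX by 1.23 ± 0.291 (adjusted p = 0.00664). Without control replicate 3 its log2 fold change was 0.44 at 1 h (adjusted p = 0.082), 1.07 at 2 h (adjusted p = 7.05e-05) and 1.67 at 4 h (adjusted p = 4.01e-07). With all libraries the values at 1 h and 2 h were -0.08 (adjusted p = 0.919) and 0.56 (adjusted p = 0.18), so that 1 control library decided whether ARR3 was called at 2 h and the sign of its value at 1 h. The steps from 1 h to 2 h (0.63, adjusted p = 0.137) and from 2 h to 4 h (0.60, adjusted p = 0.229) were not called in the fit of all 12 libraries. In fits restricted to the 2 groups in question, which hold no control library, both passed (adjusted p = 0.00561 and 0.00519). The sign at 1 h also turned without DEX 1 h replicate 1 (0.01), and the call at 4 h was lost when the fit held only the 2 groups compared (adjusted p = 0.062).

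ARR4 moved less. It was at 48.3, 52.7 and 75.8 CPM in the controls, 37.8, 38.1 and 50.8 CPM after 1 h of DEX, 58.8, 64.8 and 60.5 CPM after 2 h, and 66.7, 60.1 and 63.4 CPM after 4 h. The libraries at 1 h overlapped the controls through DEX replicate 3, and lay below all libraries at 2 h and 4 h. ARR4 rose from 1 h to 2 h by 0.54 ± 0.156 on the log2 scale (adjusted p = 0.0209) and was 0.59 ± 0.156 higher at 4 h than at 1 h (adjusted p = 0.00849). Against the control its log2 fold changes were -0.48 at 1 h (adjusted p = 0.0766), 0.06 at 2 h (adjusted p = 0.803) and 0.10 at 4 h (adjusted p = 0.602), none of them called. Without control replicate 3 the values were -0.26 at 1 h (adjusted p = 0.193), 0.28 at 2 h (0.0658) and 0.33 at 4 h (0.0245). The value at 1 h passed the threshold in DESeq2 (adjusted p = 0.0173) and without control replicate 1 (0.0263) or DEX 1 h replicate 3 (0.0294). The rise from 1 h to 2 h missed it without DEX 1 h replicate 1 (adjusted p = 0.106) or 2 (0.0773) or DEX 2 h replicate 2 (0.0684) or 3 (0.0531), and the difference from 1 h to 4 h without DEX 1 h replicate 1 (0.0501).

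ARR8 was the member with the lowest adjusted p at 1 h against the control and from 1 h to 4 h. ARR8 is the relative of ARR9, and it dampens cytokinin responses when overproduced. ARR8 stood at 53.2, 56.1 and 73.7 CPM in the controls, at 35.9, 39.4 and 41.3 CPM after 1 h, at 69.2, 66.3 and 70.9 CPM after 2 h, and at 71.3, 65.3 and 85.3 CPM after 4 h. The 3 libraries at 1 h were below each of the other 9. It was lower than the control at 1 h at a log2 fold change of -0.65 ± 0.118 (adjusted p = 0.00239), a call that remained without control replicate 3 (-0.49, adjusted p = 0.00596). It then rose by 0.83 ± 0.118 from 1 h to 2 h (adjusted p = 0.00028) and was 0.93 ± 0.118 higher at 4 h than at 1 h (adjusted p = 2.98e-05). Against the control the later values were 0.17 at 2 h (adjusted p = 0.263) and 0.28 at 4 h (adjusted p = 0.058), and without control replicate 3 they were 0.33 (adjusted p = 0.0197) and 0.44 (adjusted p = 0.00221). Without DEX 4 h replicate 2 the value at 4 h was 0.36 (adjusted p = 0.0255). ARR8 counts were not whole in 7 libraries, at most 0.021 from a whole number.

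ARR9 followed a shallower course. It was at 16.2, 18 and 20.7 CPM in the controls, 14.1, 13.7 and 17.1 CPM at 1 h, 18.1, 19.2 and 20.3 CPM at 2 h, and 25.9, 21.6 and 28.4 CPM at 4 h. All libraries at 4 h exceeded all others, and those at 1 h overlapped the controls. ARR9 was higher at 4 h than in the control by 0.47 ± 0.117 (adjusted p = 0.00328) and than at 1 h of DEX by 0.76 ± 0.118 (adjusted p = 8.98e-05). The steps from 1 h to 2 h (0.36 ± 0.12, adjusted p = 0.0312) and from 2 h to 4 h (0.40 ± 0.117, adjusted p = 0.0483) were both called, but neither held throughout. The step to 2 h missed the threshold with libraries scaled by their totals (adjusted p = 0.0805) and without DEX 1 h replicate 1 (0.101) or 2 (0.122) or DEX 2 h replicate 2 (0.074) or 3 (0.107). The step to 4 h missed it with total scaling (adjusted p = 0.0531), with GC and length offsets (0.0674), and without DEX 2 h replicate 1 (0.188), 2 (0.113) or 3 (0.0789) or DEX 4 h replicate 1 (0.128) or 3 (0.199). At 1 h against the control ARR9 was at -0.29 ± 0.119 (adjusted p = 0.15), and passed without DEX 1 h replicate 3 (-0.39, adjusted p = 0.0491). Leaving out control replicate 3 put ARR9 at -0.19 at 1 h (adjusted p = 0.445), 0.17 at 2 h (0.34) and 0.56 at 4 h (0.00177), beside 0.07 at 2 h with all libraries (0.686).

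ARR5 and ARR6 are the type-A genes most often used as reporters of a cytokinin response. ARR5 was at 12.4, 14.4 and 21.5 CPM in the controls, 10.1, 5.34 and 9.37 CPM at 1 h, 9.06, 8.22 and 10.7 CPM at 2 h, and 13.2, 11.5 and 11.9 CPM at 4 h. Every library at 1 h and 2 h was below every control, and the libraries at 4 h overlapped control replicate 1. ARR5 was lower than the control at a log2 fold change of -0.96 ± 0.232 at 1 h (adjusted p = 0.0212) and -0.79 ± 0.232 at 2 h (adjusted p = 0.0205), and its value at 4 h was -0.40 ± 0.227 (adjusted p = 0.163). Both calls were lost without control replicate 3, where the values were -0.70 (adjusted p = 0.0528) and -0.52 (adjusted p = 0.0627), with -0.14 at 4 h (0.595). The call at 1 h was also lost in a fit of only the 2 groups (adjusted p = 0.0925), and the one at 2 h if DEX 2 h replicate 1 (0.0633) or 2 (0.0784) was left out. From 1 h to 4 h of DEX the log2 difference was 0.56 ± 0.239 (adjusted p = 0.0705), with no overlap between the 6 libraries, and DESeq2 gave an adjusted p of 0.0317.

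ARR6 passed the threshold in none of the 6 comparisons in edgeR or DESeq2, with an unadjusted edgeR p of 0.0391 at 1 h against the control. It lay between 11.4 and 13.4 CPM in the controls, 6.44 and 11.4 CPM at 1 h, 8.88 and 11.8 CPM at 2 h and 10.3 and 13 CPM at 4 h. Its log2 fold changes against the control were -0.39 ± 0.173 at 1 h (adjusted p = 0.188), -0.30 ± 0.174 at 2 h (adjusted p = 0.191) and -0.09 ± 0.173 at 4 h (adjusted p = 0.695). They were -0.33 (adjusted p = 0.386), -0.25 (0.37) and -0.03 (0.915) without control replicate 3. The lowest library, DEX 1 h replicate 2, was also the lowest of all 12 for ARR5 and ARR9.

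ARR7 and ARR15 restrain cytokinin output in stem cell niches, being repressed by WUSCHEL in the shoot meristem and activated by auxin in the embryonic root. ARR7 was at 3.28, 2.84 and 4.7 CPM in the controls, 3.07, 3.03 and 2.22 CPM at 1 h, 2.2, 1.78 and 1.85 CPM at 2 h, and 1.26, 1.84 and 2.07 CPM at 4 h. It was the one member whose 3 DEX groups had means of 2.77, 1.94 and 1.72 CPM in order of time, and each library at 2 h and 4 h was below each control. ARR7 was lower than the control at a log2 fold change of -0.89 ± 0.241 at 2 h (adjusted p = 0.00959) and -1.05 ± 0.247 at 4 h (adjusted p = 0.00213). Without control replicate 3 these values were -0.65 (adjusted p = 0.0562) and -0.82 (adjusted p = 0.0146). At 1 h the value was -0.37 (adjusted p = 0.361) with it and -0.14 (0.808) without. The single steps from 1 h to 2 h (-0.51, adjusted p = 0.122) and from 2 h to 4 h (-0.17, adjusted p = 0.745) were not called. At 4 h it was also below the level at 1 h of DEX, at a log2 fold change of -0.68 ± 0.252 (adjusted p = 0.0345), while ARR3, ARR4, ARR8 and ARR9 were above theirs. That call was lost in DESeq2 (adjusted p = 0.053), in a fit of only the 2 groups (0.0501), and without DEX 1 h replicate 1 (0.0994) or 2 (0.0991) or DEX 4 h replicate 1 (0.14) or 2 (0.0582).

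ARR15 was at 2.52, 2.25 and 3.11 CPM in the controls, 1.88, 0.991 and 1.23 CPM at 1 h, 0.944, 1.18 and 1.52 CPM at 2 h, and 1.48, 2.66 and 1.38 CPM at 4 h. All libraries at 1 h and 2 h lay below the controls, and replicate 2 at 4 h lay within their range. ARR15 was lower than the control at 2 h at a log2 fold change of -1.11 ± 0.308 (adjusted p = 0.0108, and 0.0426 without control replicate 3, but 0.0511 without DEX 2 h replicate 1). Its value at 1 h, -0.93 ± 0.295, missed the threshold (adjusted p = 0.0572), and that at 4 h was -0.49 ± 0.292 (adjusted p = 0.169). Without control replicate 3 these were -0.79 (adjusted p = 0.185) and -0.36 (0.395). With GC and length offsets both passed (adjusted p = 0.038 and 0.046), as did the first without DEX 1 h replicate 1 (-1.24, adjusted p = 0.0255) and the second without DEX 4 h replicate 2 (-0.87, adjusted p = 0.0335).

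ARR16 and ARR17, which the stomatal factor SPEECHLESS represses in the leaf epidermis, were barely present in these root tips. ARR16 had 1, 2 and 1 counts in the controls, 5, 7 and 5 at 1 h, 2, 4 and 1 at 2 h, and 7, 2 and 4 at 4 h, too few to pass the count filter. Every library at 1 h exceeded every control, and replicate 2 at 4 h had as many counts as control replicate 2. In the fit without a filter the adjusted p was 0.145 at 1 h and 0.0694 at 4 h. ARR17, with 1 to 15 counts per library, passed the filter and was not called in any comparison, with standard errors of 0.592 to 0.724 on the log2 scale. Its values without control replicate 3 were 1.25, 1.24 and 0.81 at 1 h, 2 h and 4 h against the control (adjusted p = 0.425, 0.257 and 0.462). At these counts a change of ARR16 or ARR17 was not detectable rather than absent.

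Counted over the family, 2 of the 9 tested members were lower after 1 h of DEX against the control (ARR5 and ARR8) and the other 7 were not called, where 9.62% of all tested loci were called, 5.03% higher and 4.59% lower. At an unadjusted p under 0.05 there were 6 lower and 0 higher in edgeR, and DESeq2 called 3 lower and 0 higher. The shares of all loci just given do not apply to these 2 criteria, and theirs are not given here, so these counts stand without a background. The median log2 fold change of the members was -0.39, against -0.01 over all tested loci, and 8 of 9 values were negative. At 2 h 3 members were lower (ARR5, ARR7 and ARR15) and the other 6 were not called, with 35.0% of loci called, 16.5% higher and 18.5% lower. At 4 h 2 were higher (ARR3 and ARR9) and 1 lower (ARR7), with 50.3% called (24.7% higher and 25.6% lower), so the members' share was below that of all loci. With offsets for GC content and length, 5 members were called at 4 h. Over all loci 8174 were then called, against 9920 in the main fit. The relation of shares just given holds for the main fit, and the share of all loci under the offsets is not given here. The median values at 2 h and 4 h were 0.06 and 0.10, close to -0.01 and 0.00 over all loci. Groups did not overlap in CPM for 26.4% of tested loci at 1 h, 51.7% at 2 h and 59.2% at 4 h.

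**Figure D2:**
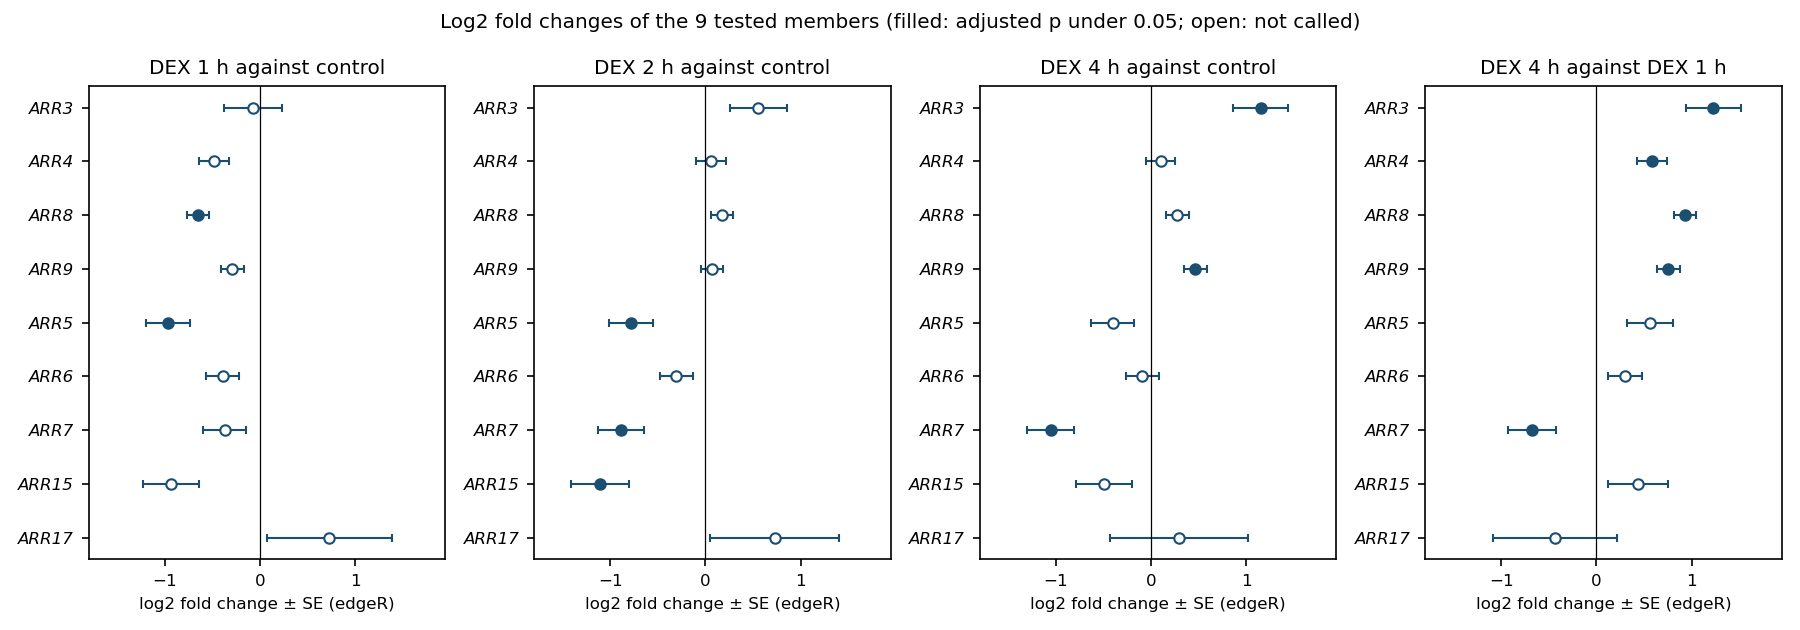
Log2 fold changes (x axis) with SE of the 9 tested members (y axis) in 3 comparisons with the control and in DEX 4 h against DEX 1 h, from edgeR. Filled points have an adjusted p under 0.05. At 1 h the points lie left of 0 except ARR17, and in DEX 4 h against DEX 1 h ARR3, ARR4, ARR8 and ARR9 lie right of 0 and ARR7 left of it.

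Leaving out control replicate 3 changed which members were called. It was singled out on these members' own values, as the highest control for each tested one. Leaving it out therefore raises every member's fold change, and the higher calls gained are no independent support. At 1 h 1 member was then lower (ARR8) with 6.77% of all loci called. At 2 h ARR3 and ARR8 were higher and ARR15 lower, with 31.0% called. At 4 h ARR3, ARR4, ARR8 and ARR9 were higher and ARR7 lower, with 46.6% called. The median of the members was then -0.26 at 1 h, 0.17 at 2 h and 0.33 at 4 h.

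**Figure D3:**
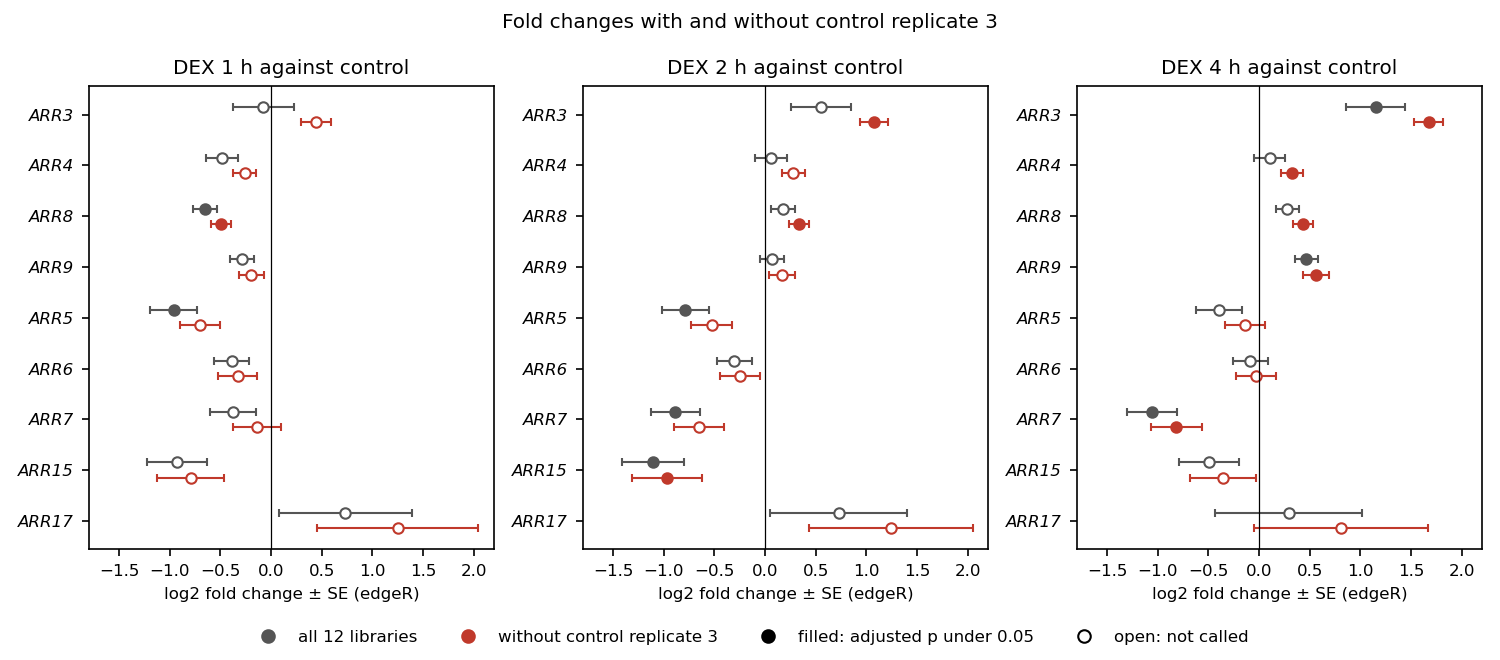
Log2 fold changes (x axis) with SE of the 9 tested members (y axis) against the control at 1 h, 2 h and 4 h, with all 12 libraries (grey) and without control replicate 3 (red). Filled points have an adjusted p under 0.05. Each red point lies to the right of its grey point, by most for ARR3 and ARR17. This direction follows from leaving out the highest control of each tested member.

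The comparisons among DEX groups contrast no control library, but the fit that gave their SE and p held the controls. From 1 h to 4 h, 4 of the 9 tested members rose (ARR3, ARR4, ARR8 and ARR9) and 1 fell (ARR7), beside 48.6% of all loci called, 24.1% higher and 24.5% lower, and the members' median was 0.56 against 0.01 over all loci. From 1 h to 2 h 3 members rose (ARR4, ARR8 and ARR9), with 31.3% of loci called (14.9% higher and 16.3% lower). From 2 h to 4 h ARR9 was the 1 member called, with 7.34% of loci called (3.60% higher and 3.73% lower), and 0 members were called when libraries were scaled by their totals. Groups did not overlap for 44.1% of tested loci between 1 h and 2 h, 32.2% between 2 h and 4 h and 54.0% between 1 h and 4 h. Summed over the 10 members, the transcripts made up 157.6 to 236.8 CPM in the controls, 122.1 to 148.1 CPM at 1 h, 189.2 to 200.6 CPM at 2 h and 204.4 to 236.9 CPM at 4 h. The sum at 1 h was thus below that in every other library, and ARR4 and ARR8 made up most of it. The root cap markers SMB, FEZ, BRN1 and BRN2 likewise had a lower sum after 1 h (44.8 to 54.5 CPM) than in the controls (61.3 to 69.9 CPM). In that comparison 2 of 4 were called lower, where 9.62% of all loci were called, 4.59% lower. At 2 h against the control 4 of 4 were called lower, with 18.5% of all loci lower. At 4 h against the control it was 1 of 4, with 25.6% lower. The sum of these markers was still 44.1 to 52.5 CPM after 2 h and reached 61.9 to 65.5 CPM after 4 h. FEZ did not follow this sum. Its mean was 5.93 CPM in the controls, then 3.48, 3.44 and 2.9 CPM in order of DEX time. SMB, BRN1 and BRN2 had higher means after 4 h than after 1 h. The part of these markers in the members' course was not tested.

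Within a pair, the balance of the relatives shifted in 2 of the 5 cases. The ratio of both members within the same library was compared over the 4 groups by an exact permutation test of the between-group variation, chosen after the values had been seen, with adjustment over 5 pairs. The mean log2 ratio of ARR3 to ARR4 CPM was -2.11 in the controls and, under DEX, -1.60 after 1 h, -1.53 after 2 h and -0.97 after 4 h (exact permutation p = 0.00266, adjusted p = 0.00666), and control replicate 3 (-1.69) lay within the range of the libraries at 1 h and 2 h. Among the 3 DEX groups alone the adjusted p was 0.0714. For ARR8 to ARR9 the means were 1.73, 1.38, 1.84 and 1.55 (exact permutation p = 0.00195, adjusted p = 0.00666) and the lowest ratio was at 1 h. Among the DEX groups alone its adjusted p was 0.0357, and all 3 libraries at 2 h lay above those at 1 h and 4 h, which overlapped. The libraries at 2 h overlapped the controls through control replicate 3 (1.83). For ARR5 to ARR6 and ARR7 to ARR15 the adjusted p was 0.12 each, and for ARR16 to ARR17 it was 0.397.

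**Figure D4:**
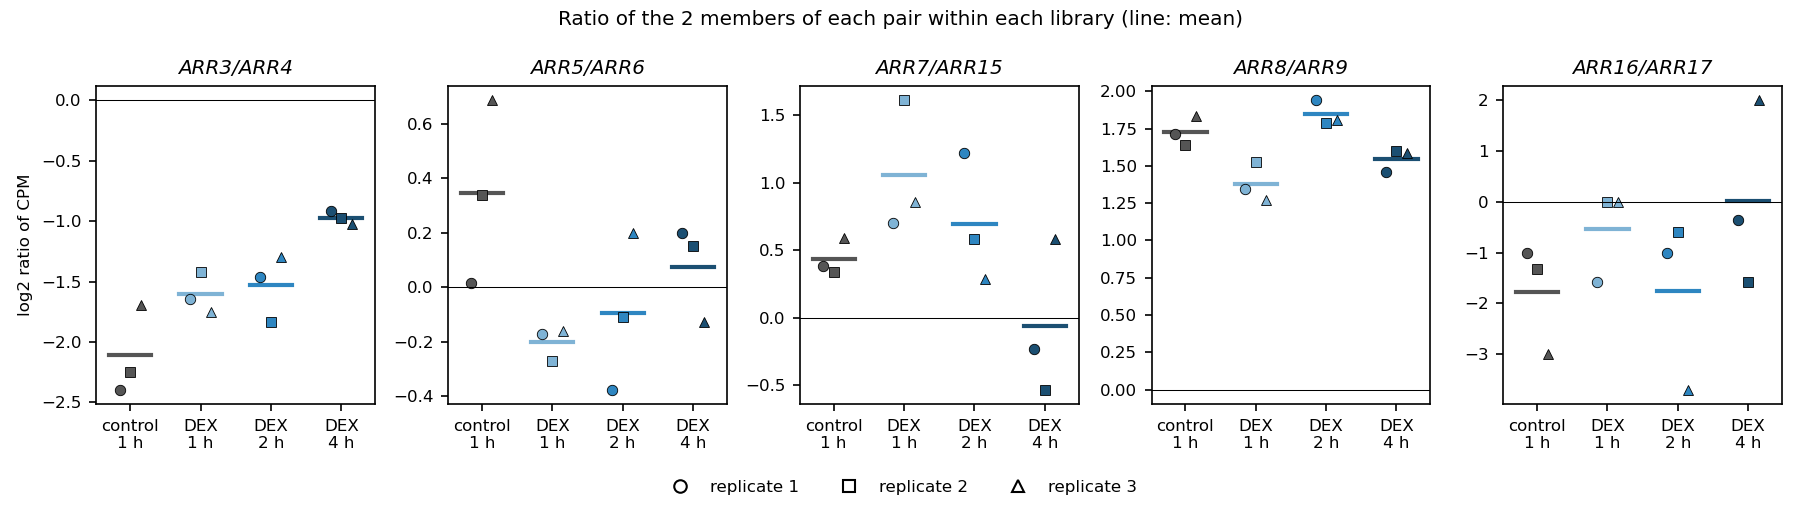
Log2 ratio of the CPM of the first to the second member of each pair (y axis, own scale per panel) in each library by group (x axis). Points are libraries, with the symbol giving the replicate number, and lines are means (n = 3). ARR3 to ARR4 is highest at DEX 4 h (-1.02 to -0.91). ARR8 to ARR9 has its highest mean at DEX 2 h (1.79 to 1.94), a range that holds control replicate 3 (1.83).

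Members were also compared by the whole course of their log2 CPM over 12 libraries, centred on each gene's mean. As a description, the closest pair was ARR4 and ARR8, with a root mean square difference of 0.172, and ARR9 was nearest to ARR4 (0.179). ARR5 and ARR6 were nearest to each other (0.282), ARR15 to ARR5 (0.325), ARR3 to ARR9 (0.393) and ARR7 to ARR6 (0.5). ARR17 was nearest to ARR4 (0.755). Thus ARR5 and ARR6 alone had their coding-sequence relative as the nearest course. The root mean square of the gene's own course around its mean was 0.273 for ARR6, 0.463 for ARR7 and 0.681 for ARR17. For these genes it was below the distance to the nearest member, so a flat course would be nearer. Among all other tested loci, those nearest to the mean course of the tested members were AT1G18010 (0.0981), AT1G65900 (0.102) and AT5G48900 (0.109).

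Genes upstream in the pathway were taken from lists that were likewise chosen with earlier results of these data known. Counts of called genes are read beside the 9.62%, 35.0% and 50.3% of all loci called at 1 h, 2 h and 4 h against the control. Among the 3 receptors, 2 were lower at 4 h against the control. These were AHK3 (-0.62, adjusted p = 2.52e-05) and AHK4/WOL, the main receptor of the root vascular cylinder (-0.22, adjusted p = 0.0295), the latter at -0.18 (adjusted p = 0.107) without control replicate 3. Among the 6 AHP genes 5 were tested. AHP2 and AHP3 were higher in all 3 comparisons with the control (at 1 h by 0.42, adjusted p = 0.016, and 0.43, adjusted p = 0.00054), and AHP6, which lacks the phosphorylated histidine and inhibits signalling beside the protoxylem, was lower at 4 h (-1.33, adjusted p = 0.00057). Of 11 type-B genes 6 were tested, and 2 were lower in each comparison with the control. That share of 33.3% was below the share of all loci at 2 h and 4 h. ARR10 was lower in all 3 (at 1 h at a log2 fold change of -0.28, adjusted p = 0.0372), ARR12 at 1 h (-0.29, adjusted p = 0.0234), and ARR2 at 4 h (-0.69, adjusted p = 2.33e-05). Without control replicate 3 the call of ARR12 was lost (-0.23, adjusted p = 0.121), and ARR14 was called higher at 2 h (1.05, adjusted p = 0.0161) and 4 h (adjusted p = 0.00418). The type-C genes ARR22 and ARR24 had no count in the controls and did not enter the test.

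The cytokinin response factors, AP2-type transcription factors some of which respond to cytokinin, were split. CRF1 was higher in all 3 comparisons with the control (at 4 h by 1.71, adjusted p = 2.09e-06), and CRF4 was lower in all 3 (at 4 h at a log2 fold change of -0.62, adjusted p = 0.000567). Of 6 tested, 1 was higher and 3 lower at 4 h, where 50.3% of all loci were called. Their summed level was 99.5 to 126 CPM in the controls and 72.2 to 92.4 CPM at 4 h.

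Genes of cytokinin supply and removal are read beside the 9.62%, 35.0% and 50.3% of all loci called at 1 h, 2 h and 4 h against the control. Of 7 tested LOG genes, 1 was higher and 2 lower at 1 h. LOG1, LOG2, LOG3, LOG4 and LOG7 were lower at 2 h, and LOG1, LOG3, LOG4, LOG5 and LOG7 at 4 h, where the median log2 fold change was -1.67. LOG5 was the one higher at 1 h (1.75, adjusted p = 0.00923) and lower at 4 h (-2.24, adjusted p = 0.0112), and LOG2 was at 0.25 at 4 h (adjusted p = 0.497). LOG4, which acts under TMO5 and LHW in the vascular cylinder, was lower at a log2 fold change of -1.10 at 1 h (adjusted p = 0.0119) and -1.67 at 4 h (adjusted p = 0.000164), and LOG3 at a log2 fold change of -1.68 (adjusted p = 0.00448) and -1.93 (adjusted p = 0.000417). The summed LOG level was 96.9 to 105 CPM in the controls and 49.3 to 61.4 CPM at 4 h. LOG7 made up most of this sum, with a mean of 68.7 CPM in the controls and 30 CPM at 4 h. LOG5 was near the limit of detection at 4 h, with a mean of 0.136 CPM and a lowest library at 0. Among 8 tested genes of cytokinin synthesis, 2 were higher and 1 lower at 4 h, and IPT7, higher at 2 h (0.67, adjusted p = 0.0364), missed the threshold there without control replicate 3 (0.0667). CYP735A1 and CYP735A2, which make trans-zeatin, were called in opposite directions there (0.56, adjusted p = 0.0206, and -1.30, adjusted p = 0.000754). Of 6 tested cytokinin oxidases 2 were higher and 2 lower in each comparison with the control. Higher in all 3 were CKX7, the cytosolic form (at 4 h by 2.55, adjusted p = 6.83e-08), and CKX6 (at 1 h by 1.07, adjusted p = 1.48e-05), whereas CKX5 was lower in all 3 (at 2 h at a log2 fold change of -0.93, adjusted p = 0.000148), with its call at 1 h lost without control replicate 3 (-0.41, adjusted p = 0.117).

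Other courses were measured beside those of the type-A genes. All 12 clock genes on the list were tested, and 1 was called at 1 h, 3 at 2 h and 6 at 4 h against the control, shares of 8.33%, 25% and 50% beside 9.62%, 35.0% and 50.3% of all loci, among them PRR7 (1.24 at 4 h, adjusted p = 3.67e-06) and RVE8 (0.85 at 4 h, adjusted p = 5.79e-05). With control replicate 3 left out, the calls of ELF4 at 1 h and 4 h and of RVE8 at 2 h were lost (adjusted p = 0.0986, 0.0725 and 0.0696), and PRR9, GI and LUX were lower at 2 h (adjusted p = 0.043, 0.0464 and 0.0186). Of the 6 meristem markers, 3 were lower at 1 h, and 4 lower and 1 higher at 2 h and at 4 h. WOX5 of the quiescent centre was lower at 4 h (-2.27, adjusted p = 4.14e-06), whereas CYCB1;1, a marker of dividing cells, was higher at 2 h (0.33, adjusted p = 0.0327) and 4 h (0.43, adjusted p = 0.00421). In the fit without control replicate 3, the calls of CYCB1;1 and PLT1 at 2 h and of PLT2 at 1 h were lost (adjusted p = 0.0936, 0.0551 and 0.164), and the shoot marker RBCS1A was higher at 4 h (0.92, adjusted p = 0.0185). The meristem markers' summed level was 173 to 190 CPM in the controls, 139 to 149 CPM at 1 h, 149 to 157 CPM at 2 h and 127 to 149 CPM at 4 h. No marker on the meristem, root cap or differentiated-root lists was at 0 throughout a group. The 6 differentiated-root markers summed to 363 to 449 CPM in the controls, 394 to 414 CPM at 1 h, 299 to 365 CPM at 2 h and 356 to 385 CPM at 4 h. The part of cell composition and of time of day in the type-A differences was not tested.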

How the data were processed

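Poly(A) RNA of root meristems was sequenced in 12 libraries, 3 for each of 4 groups taken from the labels. Reads were processed with CASAVA, GSNAP, HTSeq and edgeR on TAIR10, per the submitters' processing notes, and no versions or strand setting are given in the sources used here. The deposited files hold expected counts per locus, estimated read counts that need not be whole and were not scaled for depth, and these were rounded. Totals were 14142082 to 17522834 counts per library, which leaves genes of a few counts without useful precision. With edgeR 4.0.16 in R 4.3.3, filterByExpr (minimum count 10, minimum total 15) kept 19733 loci. Libraries were scaled by TMM, and a robust quasi-likelihood fit of all 12 libraries with group as the only term gave 6 contrasts. Benjamini-Hochberg adjustment ran over the whole table of tested loci, and calls were made at an adjusted p of 0.05. Adjusted values come from edgeR where neither DESeq2 (1.42.0) nor the permutation test is named. The SE is the log2 fold change divided by the square root of F, and CPM use TMM-scaled totals. CPM per kb divide by the exon length in TAIR10.1, in which 28009 loci matched by locus tag.

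The members and lists were chosen with earlier results of these data known. Named from the pathway lists were genes called in the same direction in all 3 comparisons with the control and up to 3 others per list with the largest called change. The likeness measure and motifs were set in the same plan. Coding sequences of the members were aligned pairwise. Alternatives were DESeq2 size factors, total scaling, no count filter, a replicate block, unrounded values, fits of only the groups compared, DESeq2's test, and each replicate left out. Offsets for GC content and exon length, and the permutation test on pair ratios with its repeat in the DEX groups, were chosen after seeing the data. Tests were checked on simulated data. Libraries with the same replicate number had correlated deviations from their group means (each pair over 0.1) in the comparison of DEX 2 h with the control (0.106 to 0.226), where the block left the count of called members at 3. In the other 5 comparisons the correlations ran from -0.221 to 0.243.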

Additional observations from a re-analysis of the deposited data

Results flagged for a closer look

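The log2 change against the control differed between 1 h and 4 h of DEX for 5 of the 9 tested members, beside 48.6% of all tested loci. It was tested directly as DEX 4 h against DEX 1 h in edgeR. The shared controls drop out of this difference, but its p comes from the fit of all 12 libraries. The difference was 1.23 for ARR3 (adjusted p = 0.00664), 0.59 for ARR4 (0.00849), 0.93 for ARR8 (2.98e-05) and 0.76 for ARR9 (8.98e-05). It was -0.68 for ARR7 (adjusted p = 0.0345), the member with the opposite sign. The 3 libraries at 4 h did not overlap the 3 at 1 h for any of these genes. As the genes were picked by this same contrast, that is no separate support. ARR5, which was not called, did not overlap either, and nor did 54.0% of all tested loci, called or not.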

How the results depend on the processing

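Under 14 alternatives for each value, ARR8 at 1 h and ARR7 and ARR9 at 4 h against the control kept direction and call. So did ARR8 from 1 h to 2 h, and ARR3, ARR8 and ARR9 from 1 h to 4 h. The number of members called at 1 h against the control was 1 in a fit of only the 2 groups, and ran from 1 to 4 with a replicate left out (1 without control replicate 3, 4 without DEX 1 h replicate 3). At 2 h it ran from 1 (without DEX 2 h replicate 1) to 3. At 4 h it was 5 with GC and length offsets, 2 in a fit of only the 2 groups (ARR3 lost), and 3 to 5 with a replicate left out (5 without control replicate 3 or DEX 4 h replicate 2). From 1 h to 2 h it ran from 1 (without DEX 1 h replicate 1 or 2 or DEX 2 h replicate 2 or 3) to 3 with a replicate left out and was 4 in a fit of only the 2 groups (ARR3 gained), and from 1 h to 4 h it ran from 3 (without DEX 1 h replicate 1) to 5. From 2 h to 4 h it was 0 with total scaling and with GC and length offsets, 2 in a fit of only the 2 groups, and 0 to 1 with a replicate left out (1 without DEX 4 h replicate 2). Over all loci, 8174 were called at 4 h with GC and length offsets, against 9920 in the main fit. From 2 h to 4 h 1382 were called with total scaling and 1170 with the offsets, against 1448. The share of all loci called without control replicate 3 is given above. For the other fits it is not given here, so those counts of members stand without a background. The causes were not tested.

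The signs that turned belonged to values that were not called. With a replicate left out, ARR3 ran from -0.32 to 0.44 at 1 h (0.01 without DEX 1 h replicate 1), ARR4 from -0.066 to 0.28 and ARR9 from -0.01 to 0.17 at 2 h, and ARR4 from -0.02 to 0.33 and ARR17 from -0.36 to 0.81 at 4 h against the control (ARR17 -0.18 with GC and length offsets). From 1 h to 2 h the ranges were -0.06 to 0.35 for ARR5, -0.13 to 0.25 for ARR6, -0.37 to 0.13 for ARR15 and -0.62 to 0.54 for ARR17 (0.003 with the replicate block and 0.008 in DESeq2). From 2 h to 4 h they were -0.31 to 0.007 for ARR7, -0.011 to 0.19 for ARR8 and -1.09 to 0.18 for ARR17, and from 1 h to 4 h -1.09 to 0.10 for ARR17.

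With the replicate number as a block, the counts of called members in the order of the comparisons (1 h, 2 h and 4 h against the control, 1 h to 2 h, 2 h to 4 h, 1 h to 4 h) were 3, 3, 4, 3, 1 and 6, against 2, 3, 3, 3, 1 and 5 without it. It added ARR4 at 1 h (adjusted p = 0.0277), ARR8 at 4 h (0.00999) and ARR5 from 1 h to 4 h (0.0237). The share of all loci called with the block is not given here, so these counts stand without a background. Scaling by library totals lowered the share of called loci that were higher from 47.8% to 31.6% between 1 h and 2 h and from 49.6% to 37.7% between 1 h and 4 h, and moved the median of all loci by at most 0.09. Depth limits ARR16 and ARR17.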
